A study of Mus musculus with 8 samples.

Results

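Gene expression in neural stem and progenitor cells that overexpressed NFIA was compared across 1 passage, in secondary against primary neurospheres. The members were the arrays whose titles name NFIA overexpression: 2 arrays of secondary neurospheres (SN NFIA, passage 1, 12 days of culture from the embryoid body stage) and 2 of primary neurospheres (PN NFIA, passage 0, 6 days), 4 of the 8 arrays of the series. The other 4 arrays were the control cells at the same stages, 2 of secondary (SN control, passage 1, 12 days) and 2 of primary neurospheres (PN control, passage 0, 6 days). All cells were mouse neural stem and progenitor cells grown as floating spheres from embryonic stem cells, and the source names describe every sample as taken from spheres that mixed wild-type cells with cells of the NFIA line. The names NFIA spheres and control spheres below stand only for the arrays with those titles. They do not mean that spheres of each line were grown apart. Total RNA was labelled with Cy3 and hybridised to single-colour Agilent arrays. The labels give neither the promoter that drives NFIA nor the number of clones, and nothing in them says that 2 arrays of a group came from separate cultures, so the p-values measure only the spread between these arrays, which may be technical.

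In mouse embryonic stem cell cultures, the cells first form embryoid bodies, whose neural progenitors then grow as primary neurospheres and give rise mainly to neurons. After dissociation and regrowth as secondary neurospheres the progenitors become more able to form astrocytes and oligodendrocytes, much as radial glia do in the embryonic brain. Nuclear factor I proteins are DNA-binding factors that take part in this switch, and NFIA, acting with SOX9, is known for opening the glial programme. The comparison asks how the transcriptome of cells with added NFIA moves across that passage.

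Levels are given throughout as log2 processed signal minus the array's own 75th percentile, so that 0 marks the 75th percentile of that array, and differences are SN minus PN on the same log2 scale with their standard error. Each array was taken from the scanner file that matched a column of the authors' value table, and the column names gave the group. The best file for each of the 8 columns correlated with it at 0.999764 or more, and the next best at 0.33475 or less. Only 1 column found its best match in its own sample's attached file, and for 7 columns that file sat with another sample. With each sample's attached file instead, 0 genes passed the limma test in either direction, and 39 higher and 48 lower genes had an unadjusted p under 0.05. By the column names, all primary arrays lay in slide row 1 and all secondary arrays in slide row 2, so passage and slide row cannot be told apart. Titles and source names also disagreed: 1 PN NFIA array (number 1) and 1 SN NFIA array (number 2) had a source name that says wild type, and all 4 control arrays had one that names the NFIA line. With the groups taken from the source names, 0 genes passed limma in either direction, and 658 higher and 938 lower genes had an unadjusted p under 0.05. The share of probes well above background was 53.04% and 50.98% in SN NFIA spheres, 56.44% and 55.25% in PN NFIA spheres, and between 45.38% and 53.95% in control spheres, and no probe was saturated. The 2 SN NFIA arrays correlated at 0.9637 and the 2 PN NFIA arrays at 0.9819 over the genes tested. Of 22 listed neural stem cell and radial glia genes, 20 were tested, and all 20 were above background on each of the 8 arrays. Only genes above background on both arrays of some group were tested. All 26 replication and mitosis genes tested were above background on each array too, so this does not identify the cell type.

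With passage, most listed glial genes had higher levels in NFIA cells, and most listed neuronal, pluripotency and epithelial genes had lower ones, while few single genes passed the test. Of 13793 genes tested, at an adjusted p under 0.05 in SN NFIA spheres 75 rose (0.544%) and 185 fell (1.34%), by a limma model over all 8 arrays with Benjamini-Hochberg adjustment. The 75 genes that rose had a median difference of 2.41 and the 185 that fell one of -2.45, against -0.05 over all genes tested. At an unadjusted p under 0.05, 1338 genes were higher and 1594 lower. The 2 SN arrays both lay above both PN arrays for 3561 genes (25.8%) and both below for 4313 genes (31.3%), so a gene whose arrays do not overlap is common here. All 75 genes that rose and all 185 that fell were among them, so for these the lack of overlap adds no evidence. The counts rested on few arrays. Without either SN NFIA array, without PN NFIA array 1, or without either PN control array, 0 genes passed limma, with between 624 and 1404 higher and between 738 and 1631 lower at an unadjusted p under 0.05, and without PN NFIA array 2 there were 18 higher and 46 lower. Without either SN control array there were 304 higher and 443 lower.

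**Figure D1:**
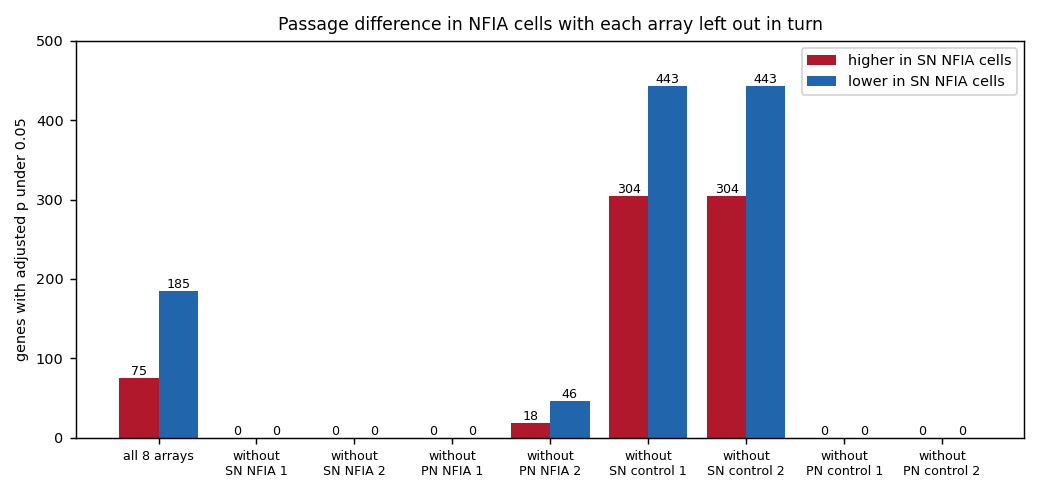
The number of genes with an adjusted p under 0.05 for SN against PN in NFIA cells (vertical axis, genes higher and genes lower as separate bars) is shown for all 8 arrays and with each array left out in turn. The bars are 75 and 185 with all arrays, 0 without any of 5 single arrays, and 304 and 443 without either SN control array.

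Among the 15 genes that rose most by the rule for named genes were receptors, a channel subunit, a carrier and secreted proteins. Grm5, a glutamate receptor gene expressed in young astrocytes, stood at 1.17 and 1.81 in SN NFIA spheres, against -3.44 and -2.68 in PN NFIA spheres. Grm5 rose, with a log2 difference of 4.55 ± 0.46 (adjusted p = 0.0204). A second probe of Grm5 gave a difference of 4.10 and the remaining one 0.17, so the probes of this gene disagree. Grm5 also rose in control cells, with a difference of 2.97 ± 0.46 (limma, adjusted p = 0.0437). Tril, a Toll-like receptor partner found in astrocytes, was at -0.40 and 0.60 in SN NFIA spheres, against -3.62 and -2.93 in PN NFIA spheres. By limma, Tril had a difference of 3.37 ± 0.41 at an adjusted p of 0.0229. Adcyap1r1, the receptor of the neuropeptide PACAP, was at 1.67 and 2.70 in SN NFIA spheres, against -1.43 and -0.53 in PN NFIA spheres. The difference for Adcyap1r1 was 3.16 ± 0.44, and the gene rose with an adjusted p of 0.0291. Adcy2, an adenylyl cyclase, was at 0.37 and 1.08 in SN NFIA spheres, against -2.63 and -1.96 in PN NFIA spheres, and Slc25a18, a mitochondrial glutamate carrier, was at 1.40 and 2.18 in SN NFIA spheres, against -2.0 and -0.61 in PN NFIA spheres. Adcy2 rose, with a log2 difference of 3.02 ± 0.53 (adjusted p = 0.0451). By limma, Slc25a18 had a difference of 3.1 ± 0.55 at an adjusted p of 0.0454. In each of these 5 genes both SN arrays lay above both PN arrays, as in every gene that rose.

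Kcnj16, an inwardly rectifying potassium channel subunit, was at -1.66 and -0.23 in SN NFIA spheres, against -6.75 and -6.50 in PN NFIA spheres, and neither PN array was well above background. Kcnj16 was at least 11-fold higher in SN NFIA spheres (adjusted p = 0.0428). It was tested only because both SN NFIA arrays were above background. Timp4, a metalloproteinase inhibitor, was at 2.15 and 3.72 in SN NFIA spheres, against -1.10 and -0.05 in PN NFIA spheres. Timp4 rose, with a log2 difference of 3.51 ± 0.64 (adjusted p = 0.0484). Ecm2, an extracellular matrix gene, stood at -0.38 and -0.56 in SN NFIA spheres, against -3.86 and -3.01 in PN NFIA spheres. By limma, Ecm2 had a difference of 2.96 ± 0.45 at an adjusted p of 0.0339. Chst7, a sulfotransferase of glycosaminoglycans, was at 3.24 and 3.29 in SN NFIA spheres, against -0.37 and 0.62 in PN NFIA spheres, and Ibsp, a bone matrix sialoprotein, was at 2.10 and 0.87 in SN NFIA spheres, against -3.30 and -1.29 in PN NFIA spheres. The difference for Chst7 was 3.14 ± 0.47, and the gene rose with an adjusted p of 0.0339. Ibsp rose, with a log2 difference of 3.78 ± 0.69 (adjusted p = 0.0484). Ibsp also rose in control cells, with a log2 bound of 2.28 (limma, adjusted p = 0.0425).

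Sftpc, Serpinb5, Dcpp3 and Cox8b, also among these 15 genes, are best known outside the nervous system. Sftpc, the lung surfactant protein C, was at -0.11 and 0.32 in SN NFIA spheres, against -5.73 and -4.69 in PN NFIA spheres, and neither PN array was well above background. As a bound, Sftpc was at least 22.8-fold higher in SN NFIA spheres, with an adjusted p of 0.0204. Serpinb5, a serpin known from epithelia, was at 1.04 and 0.05 in SN NFIA spheres, against -3.32 and -2.71 in PN NFIA spheres. The difference for Serpinb5 was 3.56 ± 0.40, and the gene rose with an adjusted p of 0.0214. Dcpp3, a secreted protein gene of salivary gland, was at -0.49 and 2.45 in SN NFIA spheres, against -6.03 and -3.68 in PN NFIA spheres. Dcpp3 rose, with a log2 difference of 5.83 ± 1.04 (adjusted p = 0.0462). Cox8b, a muscle-type subunit of cytochrome c oxidase, was at -0.11 and 2.43 in SN NFIA spheres, against -5.51 and -3.41 in PN NFIA spheres. By limma, Cox8b had a difference of 5.62 ± 1.02 at an adjusted p of 0.0484. For Dcpp3 and Cox8b, 1 of the 2 PN arrays was well above background. Sftpc, Serpinb5, Dcpp3 and Cox8b were not well above background on any control array. Sftpc, Dcpp3 and Cox8b were tested only because both arrays of SN NFIA spheres, where they are high, were above background. A rise of such genes follows in part from that filter.

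**Figure D2:**
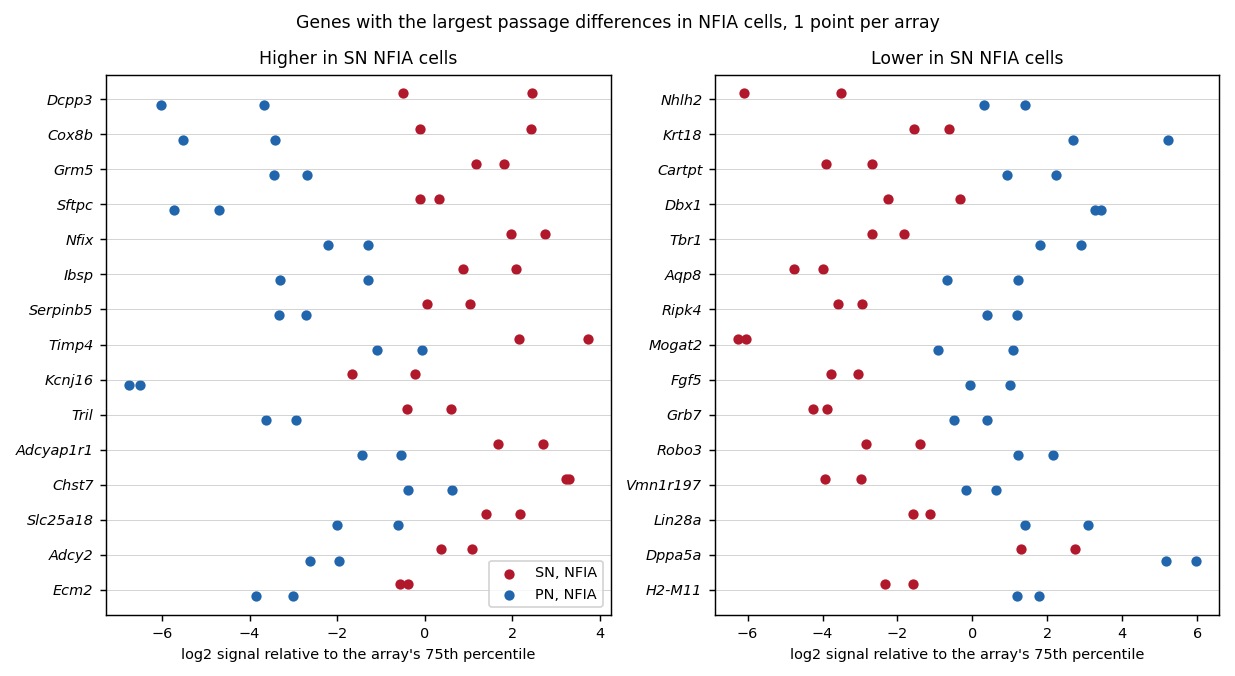
Each point is the log2 signal of 1 array relative to its 75th percentile (horizontal axis) for the 15 genes that rose most and the 15 that fell most between SN and PN NFIA spheres, ranked by size of the difference or of its lower bound. For every gene shown, both SN arrays lie on one side of both PN arrays, which the rule for choosing them required.

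The 4 nuclear factor I genes had positive differences, and 1 of 4 passed the test. Nfix, a family member of later neural progenitors, was at 1.96 and 2.75 in SN NFIA spheres, against -2.21 and -1.30 in PN NFIA spheres. The difference for Nfix was 4.12 ± 0.70, and the gene rose with an adjusted p of 0.0435. In control spheres Nfix was at 0.13 and 0.99 in SN control spheres, against -5.04 and -3.05 in PN control spheres, and the control difference was 4.61 ± 0.70 with an adjusted p of 0.042. The overexpressed gene itself, Nfia, was at 1.70 and 1.62 in SN NFIA spheres, against -0.24 and 0.93 in PN NFIA spheres, and at 1.00 and 0.61 in SN control spheres, against -1.30 and -0.30 in PN control spheres. Nfia differed by 1.31 ± 0.48 and did not pass the test (adjusted p = 0.181). A second Nfia probe gave a difference of 0.79. The probes cannot separate the added Nfia from the cell's own transcript, since the labels do not say which sequence was added. Nfib was at 5.40 and 4.36 in SN NFIA spheres, against 2.96 and 3.88 in PN NFIA spheres, and Nfic at 3.36 and 3.12 in SN NFIA spheres, against 1.93 and 2.52 in PN NFIA spheres. Nfib did not pass the test, with a difference of 1.46 ± 0.56 and an adjusted p of 0.201. Nfic differed by 1.02 ± 0.36 and did not pass the test (adjusted p = 0.174). All 4 genes were above both PN arrays in both SN arrays, as were 25.8% of all genes tested. The median difference of the 4 genes was 1.39 in NFIA cells and 1.79 in control cells.

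Nuclear factor I proteins bind a palindrome spelled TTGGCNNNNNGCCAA and, more weakly, a shorter core, TTGGC. Promoter sequences around the transcription start were available from RefSeq on build GRCm38.p6 for 53 of the 75 genes that rose and 140 of the 185 that fell. The palindrome was found in 12 of 32851 promoters in the table (0.04%), in 0 of 65 promoters of genes that rose and in 0 of 178 of genes that fell. The core, read on both strands as TTGGC or GCCAA and counted also where it forms part of a palindrome, was in 40 of 65 promoters of genes that rose (61.54%) and in 87 of 178 of genes that fell (48.88%), against 49.88% of promoters of all genes tested and 46.71% of all promoters. A match is only a run of letters and shows no binding. The promoters of Id3, Tril and Nfix, which rose and belong to the astrocyte and nuclear factor I lists, and of Krt18, which fell, are shown to let the core sites be seen in place, with each core in capitals and the coding strand read 5′ to 3′.
Id3, chr4:136143572-136143871, plus strand: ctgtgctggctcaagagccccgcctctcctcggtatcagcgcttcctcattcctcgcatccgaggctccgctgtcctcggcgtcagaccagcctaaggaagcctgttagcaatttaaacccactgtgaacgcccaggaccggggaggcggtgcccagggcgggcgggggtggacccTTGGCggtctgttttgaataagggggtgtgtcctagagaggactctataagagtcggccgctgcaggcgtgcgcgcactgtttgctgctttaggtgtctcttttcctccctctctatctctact
Tril, chr6:53820776-53821075, minus strand: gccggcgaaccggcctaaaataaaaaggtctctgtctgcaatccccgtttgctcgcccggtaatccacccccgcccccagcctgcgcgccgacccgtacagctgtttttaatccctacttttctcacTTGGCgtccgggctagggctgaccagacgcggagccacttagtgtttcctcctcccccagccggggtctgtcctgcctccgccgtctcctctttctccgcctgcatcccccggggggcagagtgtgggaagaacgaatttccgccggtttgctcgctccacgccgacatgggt
Nfix, chr8:84772826-84773125, minus strand: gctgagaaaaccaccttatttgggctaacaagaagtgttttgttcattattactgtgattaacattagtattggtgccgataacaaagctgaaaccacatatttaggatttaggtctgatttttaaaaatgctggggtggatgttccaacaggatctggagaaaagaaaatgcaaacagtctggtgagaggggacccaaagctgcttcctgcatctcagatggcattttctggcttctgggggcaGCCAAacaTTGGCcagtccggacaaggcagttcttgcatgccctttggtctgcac
Krt18, chr15:102027966-102028265, plus strand: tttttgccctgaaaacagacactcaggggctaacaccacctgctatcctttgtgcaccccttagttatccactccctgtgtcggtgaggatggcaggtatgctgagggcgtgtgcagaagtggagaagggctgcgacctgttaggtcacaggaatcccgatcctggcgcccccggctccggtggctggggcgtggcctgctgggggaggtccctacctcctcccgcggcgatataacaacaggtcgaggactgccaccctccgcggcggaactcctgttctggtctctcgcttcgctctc
Id3 and Tril have 1 core each in this window and Krt18 has 0. The Nfix promoter shown is the one of 4 annotated starts with the most cores, 2, and the others had 1, 1 and 0. The promoters shown are examples and do not stand for all genes that rose or fell, since 48.88% of promoters of genes that fell had a core.

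Most astrocyte genes had higher levels in SN NFIA spheres, but few passed the test. Of 29 listed astrocyte genes tested, 2 rose, 0 fell, and 26 had a positive difference, with a median of 2.04 in NFIA cells, against 1.11 in control cells and -0.05 over all genes tested in NFIA cells. Their mean level was 2.47 and 3.70 in SN NFIA spheres, against 0.65 and 1.52 in PN NFIA spheres. The genes that rose were Tril, above, and Id3, a helix-loop-helix inhibitor that BMP signals induce. Id3 was at 4.74 and 4.85 in SN NFIA spheres, against 2.68 and 2.96 in PN NFIA spheres. Id3 rose, with a log2 difference of 1.98 ± 0.24 (adjusted p = 0.0229). The 2 arrays of each NFIA group were close together, and control spheres were at 2.53 and 2.74 in SN control spheres, against 3.33 and 3.21 in PN control spheres. The control difference of Id3 was -0.64 ± 0.24, with an adjusted p of 0.31.

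Gfap, the intermediate filament of astrocytes, was at -3.28 and -0.38 in SN NFIA spheres, against -5.85 and -5.72 in PN NFIA spheres, with neither PN array well above background. Gfap was at least 5.95-fold higher in SN NFIA spheres as measured, but did not pass the test (adjusted p = 0.0743). It was tested only because both SN NFIA arrays were above background. S100b, a calcium-binding protein of glia, was at 0.86 and 4.14 in SN NFIA spheres, against -2.55 and -2.0 in PN NFIA spheres, and Aqp4, the water channel of astrocyte endfeet, at -1.43 and 2.62 in SN NFIA spheres, against -2.59 and -1.93 in PN NFIA spheres. S100b differed by 4.77 ± 2.65 and did not pass the test (adjusted p = 0.35). Aqp4 did not pass the test, with a difference of 2.85 ± 1.77 and an adjusted p of 0.4. For these 3 genes SN NFIA array 2 lay well above SN NFIA array 1. Control spheres differed in the same way in S100b, which was at -4.26 and 5.06 in SN control spheres, against -6.44 and -6.54 in PN control spheres. Mlc1, a membrane protein of astrocytes, was at 5.82 and 6.96 in SN NFIA spheres, against 1.80 and 3.61 in PN NFIA spheres, and Slc4a4, a bicarbonate transporter, at 0.27 and 0.62 in SN NFIA spheres, against -2.52 and -1.61 in PN NFIA spheres. Mlc1 differed by 3.68 ± 0.70 and did not pass the test (adjusted p = 0.0528). Slc4a4 did not pass the test, with a difference of 2.51 ± 0.54 and an adjusted p of 0.0671. Sox9, the partner of NFIA, was at 2.08 and 2.19 in SN NFIA spheres, against 1.15 and 1.54 in PN NFIA spheres. Sox9 differed by 0.79 ± 0.28 and did not pass the test (adjusted p = 0.17). The 4 genes of the SOX9 and NFIA early glial list had a median of 1.46 in NFIA cells and 1.64 in control cells, and 0 passed in NFIA cells.

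**Figure D3:**
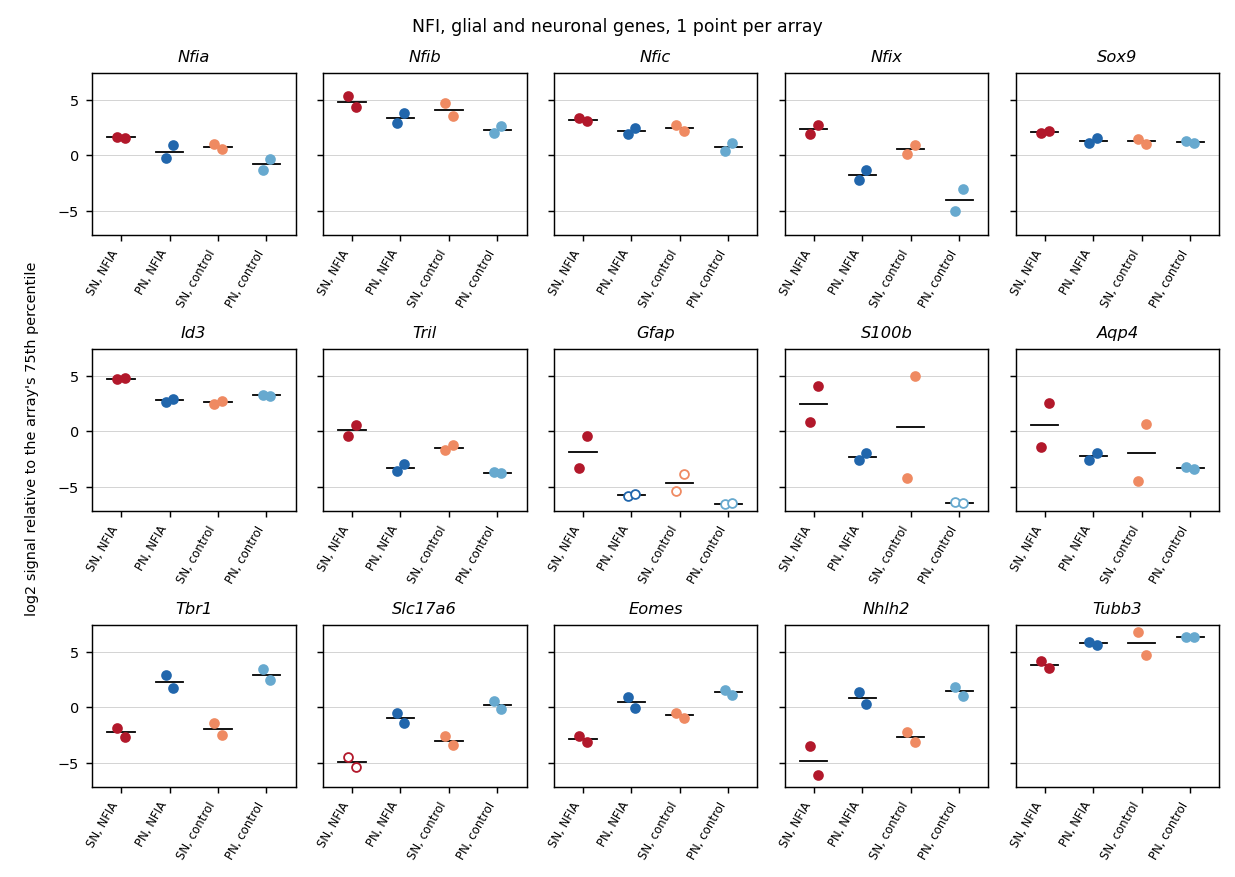
Each panel plots 1 gene in the 4 groups, with 1 point per array, a line at the mean of the 2 arrays, and open points where neither array of the group was well above background; the vertical axis is the log2 signal relative to the array's 75th percentile. Gfap, S100b and Aqp4 differ widely between the 2 SN NFIA arrays, while Id3, Tril and Nfix do not.

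Oligodendrocyte lineage genes had a median difference of 2.72 in NFIA cells and 3.61 in control cells, and 14 of 16 were positive. Olig1, a transcription factor of the lineage, was at 3.55 and 4.89 in SN NFIA spheres, against -1.80 and 0.94 in PN NFIA spheres, and its partner Olig2 at 1.94 and 3.47 in SN NFIA spheres, against -1.59 and 0.33 in PN NFIA spheres. Olig1 did not pass the test, with a difference of 4.65 ± 1.01 and an adjusted p of 0.0671. Olig2 differed by 3.34 ± 0.90 and did not pass the test (adjusted p = 0.102). The mean level of the list was 0.04 and 2.17 in SN NFIA spheres, against -1.63 and -1.03 in PN NFIA spheres, so the SN arrays differed from each other by more than the PN arrays did. Mbp, the myelin basic protein gene, was the single member that passed, and it was lower, at 0.17 and 0.09 in SN NFIA spheres, against 2.32 and 1.70 in PN NFIA spheres. The difference for Mbp was -1.88 ± 0.30, and the gene fell with an adjusted p of 0.0387. Its 3 probes disagreed, since another gave a difference of 1.95 and the remaining one -2.56.

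Most neuronal genes had lower levels in SN NFIA spheres. Of 31 neuronal genes tested, 2 fell, 0 rose, and 26 had a negative difference, with a median of -1.16, against -0.63 in control cells. Their mean level was 1.62 and 0.89 in SN NFIA spheres, against 2.58 and 2.47 in PN NFIA spheres. Tbr1, a transcription factor of early cortical neurons, was at -1.83 and -2.68 in SN NFIA spheres, against 2.91 and 1.81 in PN NFIA spheres. Tbr1 fell, with a log2 difference of -4.61 ± 0.60 (adjusted p = 0.0243). In control spheres Tbr1 was at -1.37 and -2.54 in SN control spheres, against 3.51 and 2.47 in PN control spheres, with a difference of -4.95 ± 0.60 and an adjusted p of 0.0196. Slc17a6, the vesicular glutamate transporter of many excitatory neurons, was at -4.51 and -5.39 in SN NFIA spheres, against -0.51 and -1.37 in PN NFIA spheres, with neither SN NFIA array well above background. As a bound, Slc17a6 was at least 7.67-fold lower in SN NFIA spheres, with an adjusted p of 0.0229. Slc17a6 also fell in control spheres, with an adjusted p of 0.042. Tubb3, a neuronal tubulin, was at 4.24 and 3.55 in SN NFIA spheres, against 5.98 and 5.69 in PN NFIA spheres. Tubb3 differed by -1.94 ± 0.62 and did not pass the test (adjusted p = 0.142). Dcx, a microtubule binder of young neurons, was at 2.43 and 1.88 in SN NFIA spheres, against 2.70 and 2.49 in PN NFIA spheres. Dcx did not pass the test, with a difference of -0.44 ± 0.47 and an adjusted p of 0.641. The other probes of Dcx gave differences of -1.14 and -1.20.

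Of 20 proneural and neurogenic progenitor genes, 3 fell and 0 rose, with a median of -1.35 in NFIA cells and -0.64 in control cells. Nhlh2, a helix-loop-helix factor of newborn neurons, was at -3.52 and -6.10 in SN NFIA spheres, against 1.40 and 0.31 in PN NFIA spheres, with 1 SN array well above background. By limma, Nhlh2 had a difference of -5.67 ± 0.85 at an adjusted p of 0.0337. Eomes, which marks intermediate progenitors of the cortex, was at -2.57 and -3.09 in SN NFIA spheres, against 0.95 and -0.04 in PN NFIA spheres. The difference for Eomes was -3.29 ± 0.40, and the gene fell with an adjusted p of 0.0229. Neurod2, a neuronal differentiation factor, was at -2.44 and -3.45 in SN NFIA spheres, against -0.65 and -0.06 in PN NFIA spheres. Neurod2 fell, with a log2 difference of -2.59 ± 0.39 (adjusted p = 0.0342). All 3 genes were lower in both SN NFIA arrays than in both PN NFIA arrays, as was every gene that fell. Other neuronal genes among the largest decreases were Cartpt, which encodes a neuropeptide, at -2.69 and -3.92 in SN NFIA spheres, against 2.23 and 0.91 in PN NFIA spheres, and Robo3, an axon guidance receptor of commissural neurons, at -1.40 and -2.84 in SN NFIA spheres, against 2.14 and 1.22 in PN NFIA spheres. By limma, Cartpt had a difference of -4.87 ± 0.84 at an adjusted p of 0.0441. Cartpt was well above background on 1 of the 2 SN arrays. The difference for Robo3 was -3.80 ± 0.68, and the gene fell with an adjusted p of 0.0484. Dbx1, a homeobox gene of ventral interneuron progenitors, was at -0.33 and -2.26 in SN NFIA spheres, against 3.44 and 3.28 in PN NFIA spheres. Dbx1 fell, with a log2 difference of -4.65 ± 0.66 (adjusted p = 0.0291).

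Neural stem cell and radial glia genes were evenly split. Of 20 such genes, 0 passed, 10 were positive and 10 negative, and the median was 0. Sox2, a stem cell transcription factor, was at 2.99 and 2.96 in SN NFIA spheres, against 2.46 and 3.27 in PN NFIA spheres. Sox2 differed by 0.11 ± 0.31 and did not pass the test (adjusted p = 0.878). Nes, which encodes nestin, was at 4.40 and 2.82 in SN NFIA spheres, against 4.33 and 4.24 in PN NFIA spheres. Nes did not pass the test, with a difference of -0.68 ± 0.62 and an adjusted p of 0.58. Pax6, a factor of dorsal progenitors, was at -2.23 and -2.13 in SN NFIA spheres, against -0.47 and -0.77 in PN NFIA spheres. Pax6 differed by -1.57 ± 0.32 and did not pass the test (adjusted p = 0.0623). Pax6 was lower in both SN arrays than in both PN arrays, as were 31.3% of all genes tested, and Sox2 and Nes overlapped. At an unadjusted p under 0.05, Pax6 was the one member that was lower and 6 members were higher. Fabp7, a fatty acid binding protein of radial glia, was at 7.25 and 8.70 in SN NFIA spheres, against 5.61 and 6.15 in PN NFIA spheres. Fabp7 did not pass the test, with a difference of 2.09 ± 0.50 and an adjusted p of 0.0819. Rfx4, a transcription factor of neural progenitors, was at 2.16 and 2.03 in SN NFIA spheres, against 0.76 and 1.08 in PN NFIA spheres. Rfx4 differed by 1.17 ± 0.27 and did not pass the test (adjusted p = 0.0796). Ptprz1, a receptor phosphatase of radial glia, was at 5.79 and 5.91 in SN NFIA spheres, against 4.06 and 4.85 in PN NFIA spheres. Ptprz1 did not pass the test, with a difference of 1.39 ± 0.34 and an adjusted p of 0.0864. In these 3 genes both SN arrays lay above both PN arrays, as in 25.8% of all genes tested.

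Most early progenitor genes had lower levels in SN NFIA spheres. Of 17 early progenitor and heterochronic genes, 3 fell and 0 rose, with a median of -1.58 in NFIA cells and -0.59 in control cells. Lin28a, an RNA-binding protein that blocks let-7 maturation and marks early progenitors, was at -1.14 and -1.58 in SN NFIA spheres, against 3.09 and 1.39 in PN NFIA spheres. By limma, Lin28a had a difference of -3.61 ± 0.65 at an adjusted p of 0.0482. In control spheres Lin28a was at 1.65 and 2.33 in SN control spheres, against 2.55 and 1.24 in PN control spheres, where the groups overlapped, and the difference was 0.10 ± 0.65 with an adjusted p of 0.962. Its relative Lin28b was at 0.24 and -0.85 in SN NFIA spheres, against 3.18 and 1.96 in PN NFIA spheres. Lin28b did not pass the test, with a difference of -2.88 ± 0.53 and an adjusted p of 0.0516. Dnmt3b, a de novo DNA methyltransferase, was at 1.83 and 1.51 in SN NFIA spheres, against 4.60 and 3.77 in PN NFIA spheres, and Igf2bp2, an RNA-binding protein of early progenitors, at 1.68 and 1.48 in SN NFIA spheres, against 3.16 and 3.16 in PN NFIA spheres. Dnmt3b fell, with a log2 difference of -2.52 ± 0.38 (adjusted p = 0.0339). By limma, Igf2bp2 had a difference of -1.58 ± 0.24 at an adjusted p of 0.0339. Hmga2, a chromatin protein of young stem cells, was at 0.99 and -0.53 in SN NFIA spheres, against 2.21 and 1.11 in PN NFIA spheres, and Nr2f1 and Nr2f2, nuclear receptors that act in the change to gliogenesis, had adjusted p-values of 0.342 and 0.803. Hmga2 differed by -1.43 ± 0.60 and did not pass the test (adjusted p = 0.229).

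Most pluripotency genes had lower levels in SN than in PN NFIA spheres. Of 22 pluripotency genes, 7 fell and 0 rose in NFIA cells, with a median of -1.86, or -1.25 with the genes near background taken at their bound, against 0.07 in control cells, where 0 passed. Fgf5, a growth factor of the primed epiblast, was at -3.06 and -3.78 in SN NFIA spheres, against 1.01 and -0.06 in PN NFIA spheres, and at 0.12 and 0.39 in SN control spheres, against -0.71 and -0.92 in PN control spheres. Fgf5 fell, with a log2 difference of -3.89 ± 0.42 (adjusted p = 0.0204). It was well above background on 1 of the 2 SN arrays. Fgf4, made by pluripotent cells, was at -2.55 and -2.28 in SN NFIA spheres, against 0.75 and 0.10 in PN NFIA spheres, and at -0.31 and 0.08 in SN control spheres, against -1.17 and -0.92 in PN control spheres. By limma, Fgf4 had a difference of -2.84 ± 0.31 at an adjusted p of 0.0214. Both genes were high in PN NFIA spheres and low in SN NFIA spheres. In control cells the difference was 1.07 ± 0.42 for Fgf5 (limma, adjusted p = 0.326) and 0.93 ± 0.31 for Fgf4 (limma, adjusted p = 0.264), and neither passed. Esrrb, a nuclear receptor of naive cells, was at -1.02 and -1.17 in SN NFIA spheres, against 1.77 and 1.09 in PN NFIA spheres, and Utf1, a chromatin protein of embryonic stem cells, at -0.87 and -1.03 in SN NFIA spheres, against 1.32 and 0.75 in PN NFIA spheres. The difference for Esrrb was -2.52 ± 0.32, and the gene fell with an adjusted p of 0.0229. Utf1 fell, with a log2 difference of -1.99 ± 0.28 (adjusted p = 0.0291). Dppa5a was at 1.30 and 2.75 in SN NFIA spheres, against 5.98 and 5.17 in PN NFIA spheres, and Zfp42, also called Rex1, at -3.18 and -1.67 in SN NFIA spheres, against 1.15 and 0.27 in PN NFIA spheres. By limma, Dppa5a had a difference of -3.55 ± 0.55 at an adjusted p of 0.0361. The difference for Zfp42 was -3.13 ± 0.56, and the gene fell with an adjusted p of 0.0462. Lefty1, a Nodal antagonist, was at -6.06 and -3.99 in SN NFIA spheres, against -1.42 and -1.18 in PN NFIA spheres, with neither SN array well above background. As a bound, Lefty1 was at least 5.97-fold lower in SN NFIA spheres, with an adjusted p of 0.0384. Pou5f1, which encodes OCT4, was at -3.72 and -2.68 in SN NFIA spheres, against -0.23 and -1.15 in PN NFIA spheres. Pou5f1 differed by -2.51 ± 0.53 and did not pass the test (adjusted p = 0.066).

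Epithelial and surface ectoderm genes showed the lowest list median in NFIA cells. Of 14 tested, 6 fell, 0 rose and 13 were negative, with a median of -2.76, or -2.37 with the genes near background at their bound, against 0.29 in control cells, where 0 passed. The mean level of the list was -3.21 and -3.01 in SN NFIA spheres, 0.12 and -1.03 in PN NFIA spheres, -1.60 and -0.94 in SN control spheres, and -1.37 and -1.63 in PN control spheres, so SN NFIA spheres were the lowest group and PN NFIA spheres held the highest array. Krt18, an epithelial keratin, was at -1.55 and -0.62 in SN NFIA spheres, against 5.23 and 2.68 in PN NFIA spheres, and at 2.23 and 3.96 in SN control spheres, against 3.12 and 2.60 in PN control spheres. The difference for Krt18 was -5.04 ± 0.90, and the gene fell with an adjusted p of 0.0462. Cdh1, which encodes E-cadherin, was at -2.61 and -2.91 in SN NFIA spheres, against 0.78 and 0.04 in PN NFIA spheres, and at -0.72 and -0.38 in SN control spheres, against -0.64 and -0.98 in PN control spheres. Cdh1 fell, with a log2 difference of -3.17 ± 0.33 (adjusted p = 0.0204). Cldn6, a tight junction claudin of embryonic epithelia, was at -5.97 and -5.81 in SN NFIA spheres, against -0.45 and -1.71 in PN NFIA spheres, with neither SN NFIA array well above background. As a bound, Cldn6 was at least 6.95-fold lower in SN NFIA spheres, with an adjusted p of 0.0204. Cldn7, another claudin, was at -1.89 and -1.53 in SN NFIA spheres, against 1.68 and 0.57 in PN NFIA spheres, and Dsp, which encodes desmoplakin of desmosomes, at -4.28 and -4.28 in SN NFIA spheres, against -0.45 and -1.72 in PN NFIA spheres. The difference for Cldn7 was -2.84 ± 0.42, and the gene fell with an adjusted p of 0.0326. Dsp fell, with a log2 difference of -3.19 ± 0.53 (adjusted p = 0.0418). Dsp was well above background on 1 of the 2 SN arrays, and both its SN values lay below the lowest spots well above background there, at -3.97 and -3.79. With signals raised to a common floor, an alternative chosen after seeing the data, Dsp differed by -2.06 (limma, adjusted p = 0.143). Esrp1, an epithelial splicing regulator, was at -3.08 and -3.43 in SN NFIA spheres, against -0.87 and -1.76 in PN NFIA spheres. By limma, Esrp1 had a difference of -1.94 ± 0.33 at an adjusted p of 0.0441. All 6 genes had both SN NFIA arrays below both PN NFIA arrays, as did every gene that fell. In the PN NFIA group array 1 was the higher for each of the 6.

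**Figure D4:**
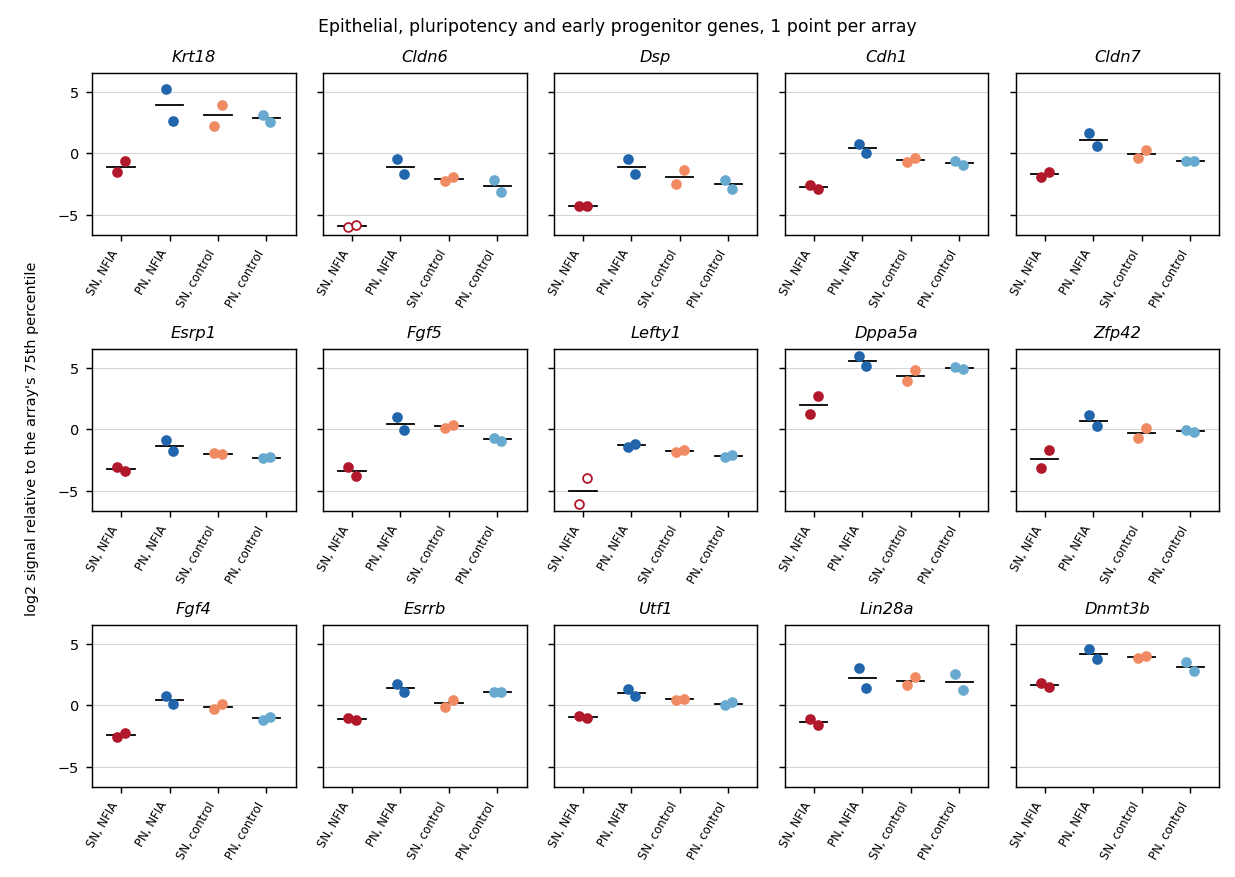
Each panel plots 1 gene in the 4 groups, with 1 point per array, a line at the mean of the 2 arrays, and open points where neither array of the group was well above background; the vertical axis is the log2 signal relative to the array's 75th percentile. In all 15 genes the 2 SN NFIA arrays are the lowest of the 8.

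Of the 15 genes that fell most, 8 were on none of the lists, among them Cartpt and Robo3, given with the neuronal genes. Grb7, a signalling adaptor, was at -4.26 and -3.88 in SN NFIA spheres, against 0.39 and -0.48 in PN NFIA spheres, with neither SN array well above background. As a bound, Grb7 was at least 14.2-fold lower in SN NFIA spheres, with an adjusted p of 0.0204. Ripk4, a kinase needed in the epidermis, was at -3.59 and -2.95 in SN NFIA spheres, against 1.18 and 0.38 in PN NFIA spheres. Ripk4 fell, with a log2 difference of -4.05 ± 0.48 (adjusted p = 0.0229). Mogat2, a lipid synthesis enzyme of intestine, was at -6.26 and -6.05 in SN NFIA spheres, against 1.07 and -0.91 in PN NFIA spheres, and Aqp8, a water channel of gut epithelia, at -3.99 and -4.77 in SN NFIA spheres, against 1.22 and -0.67 in PN NFIA spheres. As a bound, Mogat2 was at least 15.5-fold lower in SN NFIA spheres, with an adjusted p of 0.0242. Aqp8 was at least 17.8-fold lower in SN NFIA spheres (adjusted p = 0.0345). A second Aqp8 probe, which did not pass the filter on dim signals, gave 0.53. H2-M11, a non-classical histocompatibility gene, was at -1.57 and -2.34 in SN NFIA spheres, against 1.18 and 1.77 in PN NFIA spheres, and Vmn1r197, a vomeronasal receptor gene of a large family, at -2.97 and -3.94 in SN NFIA spheres, against -0.17 and 0.63 in PN NFIA spheres. H2-M11 fell, with a log2 difference of -3.43 ± 0.34 (adjusted p = 0.0204). By limma, Vmn1r197 had a difference of -3.68 ± 0.50 at an adjusted p of 0.0277. Vmn1r197 was well above background on 1 of the 2 SN arrays.

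Markers of other cell types were read beside these decreases, and their part in them was not tested. Of 10 endoderm and yolk sac genes tested, 6 had a negative and 4 a positive difference, with a median of -0.84 in NFIA cells and 0.63 in control cells. Endoderm and yolk sac genes had a mean level of -0.62 and -0.80 in SN NFIA spheres, against 0.74 and -0.34 in PN NFIA spheres, and 0 of 10 passed, and of -1.32 and -0.92 in SN control spheres, against -1.46 and -1.64 in PN control spheres. Afp, the yolk sac and liver protein alpha-fetoprotein, was at -6.22 and -6.01 in SN NFIA spheres, against -1.29 and -4.62 in PN NFIA spheres. Afp was at least 1.9-fold lower in SN NFIA spheres as measured, but did not pass the test (adjusted p = 0.117). It was above background on both PN NFIA arrays and on no other array. Sox17, an endoderm factor, was at -6.25 and -6.03 in SN NFIA spheres, against -1.08 and -3.81 in PN NFIA spheres. Sox17 was at least 2.7-fold lower in SN NFIA spheres as measured, but did not pass the test (adjusted p = 0.0951). Sox7, another endoderm factor, was at -3.06 and -2.22 in SN NFIA spheres, against -3.80 and -4.12 in PN NFIA spheres. Sox7 did not pass the test, with a difference of 1.32 ± 0.36 and an adjusted p of 0.103. Of 12 endothelial genes, 8 were tested and 0 passed, with a median of -1.12 in NFIA cells and 0.06 in control cells. Of 16 blood and microglia genes, 6 were tested and 0 passed, with a median of -0.76 in NFIA cells and 0.05 in control cells, and Itgam, an integrin of myeloid cells, was at 4.06 and 5.61 in SN NFIA spheres, against 3.55 and 3.85 in PN NFIA spheres. Itgam differed by 1.13 ± 0.47 and did not pass the test (adjusted p = 0.23). The Itgam probe used averaged 4.16 over the arrays. A second averaged -3.24 with a difference of 0.20, so the probes of this gene disagree. Another, which did not pass the filter on dim signals, averaged -4.75 with a difference of -0.33. Some members of these lists, such as the globin gene Hbb-y, were tested only because both PN NFIA arrays were above background. Without the filter on dim probes the median was -0.75 over 12 endothelial genes, 0.10 over 15 blood and microglia genes and -0.84 over 16 endoderm genes. In bulk samples such as these, fewer cells of a type and less RNA per cell cannot be told apart.

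Genes of the Y chromosome stood lower in SN NFIA spheres too, and 1 of 3 passed. Uty, a histone demethylase gene, was at -6.27 and -6.10 in SN NFIA spheres, against -2.40 and -4.07 in PN NFIA spheres, and at -1.88 and -2.28 in SN control spheres, against -1.72 and -1.14 in PN control spheres. As a bound, Uty was at least 1.56-fold lower in SN NFIA spheres, with an adjusted p of 0.0478. Ddx3y, an RNA helicase gene, was at -4.53 and -4.51 in SN NFIA spheres, against -1.03 and -2.89 in PN NFIA spheres, and at 0.03 and 0.16 in SN control spheres, against 0.01 and 0.22 in PN control spheres. Ddx3y was at least 3.77-fold lower in SN NFIA spheres as measured, but did not pass the test (adjusted p = 0.066). Eif2s3y, a translation factor gene, was at -1.95 and -1.49 in SN NFIA spheres, against 1.46 and -0.26 in PN NFIA spheres, and at 2.10 and 1.90 in SN control spheres, against 2.83 and 3.02 in PN control spheres. Eif2s3y differed by -2.32 ± 0.53 and did not pass the test (adjusted p = 0.0743). In all 3 genes the SN NFIA arrays were the lowest, PN NFIA array 2 was next, and PN NFIA array 1 stood above it. The part of this difference in the results for other genes was not tested.

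The change with passage was compared with that in control cells through the difference between them. At an adjusted p under 0.05 in limma, 0 genes passed (0%), with a smallest adjusted p of 0.0714, and 932 genes had an unadjusted p under 0.05. Without SN control array 1, 30 genes passed at an adjusted p under 0.05, without PN NFIA array 2, 2 passed, and without SN control array 2, 1 passed. In control cells alone, 96 genes rose (0.696%) and 15 fell (0.109%). The NFIA and control comparisons share no array, but they share the fitted spread and may share cultures. By the source names, every sample was taken from spheres that mixed both lines. Deviations from the group means correlated at 0.484 between the SN groups and at 0.444 between the PN groups. The main fit held no such pairing, so agreement between the NFIA and control comparisons may not be independent. Of the 75 genes that rose in NFIA cells, 69 had a positive control difference, with a median of 1.12, and 17 also rose in control cells. Of the 185 that fell, 137 had a negative control difference, with a median of -0.65, 11 also fell in control cells and 1 rose. Over all genes tested, 39.5% of control differences were positive. The epithelial list had a median of -3.40 for NFIA minus control differences, and 11 of its 14 genes had an unadjusted p under 0.05. The pluripotency list had -1.46, with 11 of 22. Over all genes tested this share was 6.8%. It was 62.7% of the genes that rose in NFIA cells and 64.9% of those that fell, which were selected on 1 side of this same contrast. The lowest unadjusted p in the epithelial and pluripotency lists was that of Fgf4, 5.53e-05, with an adjusted p of 0.0775. None of these genes is therefore shown to change differently in NFIA and control cells.

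**Figure D5:**
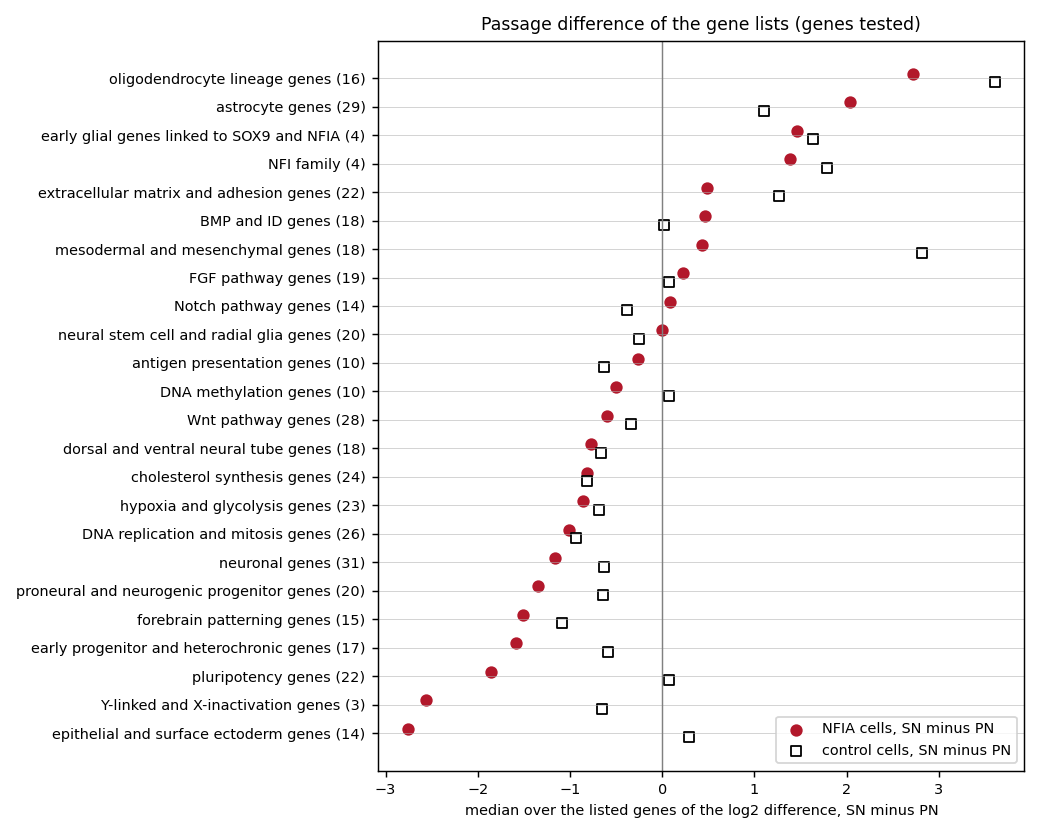
For 24 gene lists, the median over the listed genes of the log2 difference, SN minus PN, is shown on the horizontal axis for NFIA cells (filled circles) and control cells (open squares), with the number of genes tested in brackets. The medians of the epithelial and pluripotency lists are -2.76 and -1.86 in NFIA cells, against 0.29 and 0.07 in control cells, and those of the replication list are -1.01 and -0.93.

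Mesenchymal and matrix genes had lower medians in NFIA cells than in control cells. Of 18 mesodermal and mesenchymal genes, 2 fell and 0 rose in NFIA cells, while 4 rose in control cells, and the medians were 0.43 in NFIA cells and 2.82 in control cells. Cnn1, a smooth muscle calponin, was at -5.44 and -6.05 in SN NFIA spheres, against -1.62 and -1.41 in PN NFIA spheres, with neither SN NFIA array well above background, and at -2.87 and -3.08 in SN control spheres, against -2.62 and -2.63 in PN control spheres. As a bound, Cnn1 was at least 5.14-fold lower in SN NFIA spheres, with an adjusted p of 0.0134. Tagln, an actin-binding protein of smooth muscle, was at -0.97 and -0.71 in SN NFIA spheres, against 0.80 and 0.99 in PN NFIA spheres. By limma, Tagln had a difference of -1.74 ± 0.24 at an adjusted p of 0.0277. Of 22 matrix and adhesion genes, 1 rose in NFIA cells and 6 rose in control cells, with medians of 0.49 in NFIA cells and 1.27 in control cells. Col6a2, a collagen VI chain, was at -0.48 and -0.58 in SN NFIA spheres, against -2.08 and -2.17 in PN NFIA spheres, and at -0.43 and 0.00 in SN control spheres, against -4.44 and -4.57 in PN control spheres. The difference for Col6a2 was 1.60 ± 0.25, and the gene rose with an adjusted p of 0.0363. In control cells the difference of Col6a2 was 4.29 ± 0.25, with an adjusted p of 0.00194.

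Cell cycle and metabolic lists had negative medians in both cell types. All 26 replication and mitosis genes had a negative difference in NFIA cells, with a median of -1.01, against -0.93 in control cells, and 2 of them fell. Kif11, a mitotic kinesin, was at -1.25 and -1.81 in SN NFIA spheres, against 0.39 and 0.01 in PN NFIA spheres, and Mcm3, a subunit of the replicative helicase, at 1.64 and 1.31 in SN NFIA spheres, against 3.74 and 3.01 in PN NFIA spheres. Kif11 fell, with a log2 difference of -1.73 ± 0.29 (adjusted p = 0.0433). By limma, Mcm3 had a difference of -1.90 ± 0.33 at an adjusted p of 0.0441. Of 24 cholesterol synthesis genes, 23 were negative, with a median of -0.81 in both cell types. Of 23 hypoxia and glycolysis genes, 2 fell, with a median of -0.86 in NFIA cells and -0.68 in control cells. Slc2a1, a glucose transporter, was at 2.03 and 2.0 in SN NFIA spheres, against 4.99 and 4.60 in PN NFIA spheres, and Slc2a3, another, at -0.24 and 0.98 in SN NFIA spheres, against 3.85 and 3.63 in PN NFIA spheres. The difference for Slc2a1 was -2.78 ± 0.49, and the gene fell with an adjusted p of 0.0457. Slc2a3 fell, with a log2 difference of -3.38 ± 0.54 (adjusted p = 0.0383). In both transporters the SN arrays lay below the PN arrays, as in every gene that fell.

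Few genes of the signalling lists passed. Of 18 BMP and ID genes, 2 rose, Id3 above and Smad9, a BMP signal transducer, at -2.97 and -2.82 in SN NFIA spheres, against -4.35 and -4.17 in PN NFIA spheres. By limma, Smad9 had a difference of 1.37 ± 0.24 at an adjusted p of 0.0461. Of 19 FGF pathway genes, Etv4, a transcription factor induced by FGF, rose and Fgf5 fell. Etv4 was at 4.09 and 3.79 in SN NFIA spheres, against 2.21 and 2.42 in PN NFIA spheres. The difference for Etv4 was 1.63 ± 0.28, and the gene rose with an adjusted p of 0.0439. Of 28 Wnt pathway genes, 2 fell: Rspo2, a secreted agonist, at -6.20 and -6.00 in SN NFIA spheres, against -0.75 and -1.42 in PN NFIA spheres, and Sp5, a target of the pathway, at -1.49 and -1.93 in SN NFIA spheres, against 1.42 and 1.48 in PN NFIA spheres. Rspo2 was at least 6.92-fold lower in SN NFIA spheres (adjusted p = 0.0204). Rspo2 also fell in control cells, with a log2 bound of -3.20 (limma, adjusted p = 0.0348). By limma, Sp5 had a difference of -3.16 ± 0.49 at an adjusted p of 0.0349. Of 14 Notch pathway genes, the ligand gene Jag2 fell, at -2.95 and -3.39 in SN NFIA spheres, against -1.53 and -1.63 in PN NFIA spheres. The difference for Jag2 was -1.58 ± 0.26, and the gene fell with an adjusted p of 0.0387. Of 10 antigen presentation genes, H2-K1, a class I heavy chain, fell, at 0.73 and 1.37 in SN NFIA spheres, against 2.69 and 2.85 in PN NFIA spheres. H2-K1 fell, with a log2 difference of -1.72 ± 0.29 (adjusted p = 0.0418). A second H2-K1 probe gave -0.47. H2-K1 also fell in control cells, with a difference of -1.95 ± 0.29 (limma, adjusted p = 0.0399). Of 14 gp130, JAK and STAT genes, 12 were positive and 0 passed, with a median of 0.76, against 0.31 in control cells.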

How the data were processed

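Signals came from scanner files of 8 Agilent arrays, each with 62976 spots on 1 slide. Per the file headers the authors deposited linear processed intensity from Feature Extraction 10.5.1.1, while the submitters' processing notes name version 10.7.3.1; the authors' value table holds log2 values whose probes are centred near a median of 0. Each table column was assigned the scanner file that it matched best. Processed intensity was taken to log2 and the array's 75th percentile subtracted. After removing control spots and 126 probes with outlier flags, 26004 of 55555 probes had a symbol through RefSeq accessions (19726 genes). The brightest probe kept per gene was used, if both arrays of any of the 4 groups had it well above background. Group means were fitted over all 8 arrays with limma 3.58.1 in R 4.3.3, with Benjamini-Hochberg adjustment over all 13793 genes, and the procedure was tested on simulated data. Where the lower group was not well above background, the fold is a bound against the lowest spot well above background on each array; a probe, the mean of its spots, counted as above background if any of its spots was.

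Named genes were the 15 with the largest increase and the 15 with the largest decrease that passed and did not overlap, the called members of 38 gene lists or else the 4 members of lowest p, and a set of neural genes; none passed for the difference between cell types. Xist, in that set, was not tested. The members, lists and tests were chosen with earlier results of these data known. Alternatives were normexp background correction (offset 50, on median foreground and background intensity, since the mean is not in the files), quantile normalization, the value table, other filters, probe means, attached files, source-name groups, replicate blocks and leaving out each array. The files name build mm9, and promoters are from GRCm38.p6. The values of 1 gene of the lists are not reported here, though counts over genes include it.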

Additional observations from a re-analysis of the deposited data

How the results depend on the processing

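The counts of called genes depended on single arrays and on the assignment of arrays. Leaving out 1 array at a time, the SN against PN comparison in NFIA cells called between 0 and 304 genes higher and between 0 and 443 lower, the control comparison between 8 and 356 higher and between 0 and 88 lower, and the difference between them between 0 and 30 genes (30 without SN control 1, 2 without PN NFIA 2, 1 without SN control 2). A lone array left in a group was assumed to vary like the other groups. With each sample's attached scanner file, 0 genes were called in any comparison, and 42 of the 54 named genes that passed and could be measured there changed sign, each with an adjusted p of 1. By the value table, each side of that contrast held 1 primary and 1 secondary array. The differences under it were -0.92 for Adcy2, -0.56 for Adcyap1r1, -0.94 for Chst7, -0.18 for Col6a2, -0.62 for Ecm2, -0.94 for Grm5, -1.33 for Ibsp, -0.24 for Id3, -0.89 for Nfix, -1.16 for Slc25a18, -1.13 for Timp4 and -0.56 for Tril among genes that rose with the matched files, and 0.20 for Aqp8, 1.60 for Cartpt, 0.21 for Cdh1, 0.49 for Cldn6, 0.22 for Cldn7, 0.001004 for Cnn1, 0.72 for Dbx1, 0.33 for Dnmt3b, 0.0899 for Dsp, 0.70 for Eomes, 0.47 for Esrp1, 0.091 for Esrrb, 0.13 for Fgf4, 0.40 for Fgf5, 0.036 for Grb7, 0.17 for Jag2, 0.14 for Kif11, 0.41 for Krt18, 0.51 for Lin28a, 0.047 for Mbp, 0.30 for Mcm3, 0.039 for Mogat2, 1.02 for Nhlh2, 1.23 for Robo3, 0.80 for Slc17a6, 0.71 for Sp5, 1.14 for Tbr1, 0.26 for Utf1, 1.03 for Uty and 0.0301 for Zfp42 among genes that fell. With the line from the source names, or without both NFIA arrays whose source names say wild type, 0 genes were called by limma in either cell type, with 658 and 368 higher and 938 and 567 lower in NFIA cells at an unadjusted p under 0.05. In both, all 62 called named genes kept their direction. Without both of those arrays this was fixed in advance, since the SN and PN NFIA arrays of every called gene did not overlap.

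Counts are given for NFIA cells as higher and lower, then for control cells. Without the filter on dim probes they were 19 and 51, and 48 and 4. With only the groups of the comparison in the fit they were 9 and 25, and 0 and 0. With normexp background correction they were 128 and 148, with 29 lower in control cells, which was also the number under quantile normalization. With signals raised to a common floor, an alternative chosen after seeing the data, they were 59 and 65, and 9 and 2. Of the 62 called named genes, 43 no longer passed without the filter on dim probes and 52 with only the groups of the comparison. With the common floor 41 no longer passed, with normexp 9 and with quantile normalization 4. None changed sign in these alternatives. Fitting only those groups leaves each estimate unchanged, and a floor cannot reverse groups that do not overlap, so in these the sign was fixed in advance. The medians of the epithelial list ranged from -3.30 to -0.52, of the pluripotency list from -2.14 to -0.51, and of the astrocyte list from 0.94 to 2.57 over the 21 alternatives other than the attached files. Under the attached files these medians were 0.26, 0 and -1.05. The cause of these changes was not tested. The number of arrays limits the precision, and genes with no array of the lower group above background have only a bound. Where 1 array of that group was above it, an estimate is given. For Dcpp3, Cox8b and Nhlh2 that estimate rests in part on a value below the lowest spot well above background.

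Taken over all genes tested, the replicate numbers did not pair the passages. Deviations from the group means correlated at 0.042 between same-numbered SN and PN NFIA arrays and at -0.188 in control arrays. Between the SN groups they correlated at 0.484, and between the PN groups at 0.444. The HOX list differed from this, since the array numbered 1 had its higher mean level in every group. With the replicate block, 131 genes were higher and 212 lower in NFIA cells and 26 were lower in control cells. With the replicate block within each passage, 679 were higher and 890 lower in NFIA cells, and 303 higher and 149 lower in control cells. With the numbers crossed between passages, chosen after seeing the data, 177 were higher and 364 lower in NFIA cells, and 21 differed between cell types.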

Other observations

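Genes that mark position along the body axis were read on the same arrays. Of 15 HOX genes, which pattern hindbrain and spinal cord, 0 passed in NFIA cells and 13 had a positive difference, with a median of 1.19 in NFIA cells and 0.48 in control cells. In every group the array numbered 1 had the higher mean level of the list: -0.84 against -2.57 in SN NFIA spheres, -1.89 against -4.16 in PN NFIA spheres, -2.22 against -3.21 in SN control spheres, and -1.90 against -4.33 in PN control spheres. Of 15 forebrain patterning genes, 0 passed and 14 were negative, with a median of -1.51 in NFIA cells and -1.09 in control cells. Of 13 midbrain and hindbrain genes, 0 passed and 11 were negative, with a median of -1.02 in NFIA cells and -0.89 in control cells. Of 18 dorsal and ventral neural tube genes, Dbx1 alone fell, and the median was -0.77 in NFIA cells and -0.66 in control cells.

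Immediate early genes, which respond to growth factors and to handling of cells, had a median of 1.48 in NFIA cells and 1.5 in control cells, and 0 of 10 passed. Their mean level was 1.56 and 2.67 in SN NFIA spheres, against 1.30 and 0.47 in PN NFIA spheres. Of the metallothionein and antioxidant genes, 15 of 18 were positive and 0 passed, with a median of 0.42 in NFIA cells and 0.04 in control cells. The medians in NFIA cells were 0.24 for the ependymal and choroid plexus list, -0.23 for the neural crest and Schwann cell list, -0.03 for CDK inhibitors, -0.25 for the Hedgehog list, -0.18 for interferon response genes and -0.31 for integrated stress response genes, and 0 members passed in any of them. Of 10 DNA methylation genes, Dnmt3b alone fell, with a list median of -0.50.

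Over the genes tested, 6 of 8 arrays correlated best with the other array of their own group. SN control array 1 correlated best with PN NFIA array 2 (0.9643) and SN control array 2 with SN NFIA array 2 (0.9507), while the 2 SN control arrays correlated at 0.9437.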
